A study of Mus musculus with 14 samples.

Results

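The regulators of G protein signalling (RGS) proteins Rgs1, Rgs2, Rgs3, Rgs10, Rgs14, Rgs16, Rgs18 and Rgs19 were read from RNA-seq tables of CD8+ T cells of mouse tumors. The 8 genes were chosen by symbol, and all 8 were listed in each of the 3 tables, out of 19959 gene symbols in all. The tumors were E.G7, a lymphoma line that descends from EL4 and expresses ovalbumin. Each of 7 groups had 2 libraries, 14 in all. Bcl6+, TIM-3+ and DN cells were sorted by flow cytometry from the CD8+ tumor-infiltrating lymphocytes (TILs) of Bcl6-RFP mice, in which a red fluorescent protein reports Bcl6, on day 21 after subcutaneous tumor inoculation. DN is not spelled out in the labels. In a second experiment Prdm1-overexpressing OT-I cells were set against control OT-I cells, and in another Bcl6-overexpressing OT-I cells against control OT-I cells. OT-I denotes transgenic CD8+ T cells whose receptor recognises an ovalbumin peptide. The cells of each pair were co-transferred and were sorted from E.G7 tumors about 8 days later. The sources used here do not give the vector of the control cells, the recipients, the age and sex of the mice or the number of animals behind a library. P-values therefore measured the spread between these libraries, which may be technical.

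RGS proteins act on heterotrimeric G proteins, which carry signals from chemokine, lipid and hormone receptors into the cell. They speed up the hydrolysis of GTP by the G alpha subunit and so shorten the signal. In lymphocytes they are best known for limiting the response to chemokines, and several are induced when T cells are activated. Rgs1, Rgs2, Rgs3, Rgs16 and Rgs18 belong to the R4 subfamily, most of whose members are little more than an RGS domain and which act on Gi or Gq alpha subunits. Rgs10 and Rgs14 belong to the R12 subfamily and act on Gi alpha subunits, and Rgs19, also called GAIP, belongs to the RZ subfamily.

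Promoter sequences are shown for Rgs10, Rgs16 and Rgs2, because the results turn on them: Rgs10 was a gene of low level with the largest fold changes, Rgs16 had the highest FPKM in TILs, and Rgs2 differed in the opposite direction from Rgs16 between Bcl6+ and TIM-3+ TILs. The sequences came from RefSeq, build GRCm38.p6, and run from 250 bases before the annotated start to 50 after it, 5′ to 3′ on the strand of the gene. Capitals mark TGACG on either strand, the core of cyclic AMP response elements. The Rgs10 window is chr7:128418123-128418422 on the minus strand, the Rgs16 window is chr1:153740103-153740402 on the plus strand and the Rgs2 window is chr1:144004100-144004399 on the minus strand.
Rgs10: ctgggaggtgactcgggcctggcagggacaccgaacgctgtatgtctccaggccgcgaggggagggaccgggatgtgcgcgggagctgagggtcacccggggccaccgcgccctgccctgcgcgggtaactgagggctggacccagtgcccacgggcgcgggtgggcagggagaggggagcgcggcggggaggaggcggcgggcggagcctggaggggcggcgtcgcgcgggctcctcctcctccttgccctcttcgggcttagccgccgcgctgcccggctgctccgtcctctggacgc
Rgs16: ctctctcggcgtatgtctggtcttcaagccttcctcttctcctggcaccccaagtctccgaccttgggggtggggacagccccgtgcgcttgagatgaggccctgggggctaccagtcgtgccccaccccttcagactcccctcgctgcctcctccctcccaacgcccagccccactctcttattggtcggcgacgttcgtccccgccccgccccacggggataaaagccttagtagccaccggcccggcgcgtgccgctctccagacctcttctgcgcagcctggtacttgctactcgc
Rgs2: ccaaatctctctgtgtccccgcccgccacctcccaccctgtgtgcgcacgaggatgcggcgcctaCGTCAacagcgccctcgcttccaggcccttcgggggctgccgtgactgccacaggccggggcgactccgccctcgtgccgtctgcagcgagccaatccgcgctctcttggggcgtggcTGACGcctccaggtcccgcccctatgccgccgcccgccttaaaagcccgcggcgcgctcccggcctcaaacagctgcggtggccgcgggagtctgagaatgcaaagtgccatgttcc
The windows were searched on both strands for TTCCTAGAA (the core of the Bcl6 consensus), for its looser form TTCNNNGAA, which contains it, for GAAAG (the core of the Prdm1 consensus) and for TGACG. The Rgs2 window held TGACG 185 bases before the start on the minus strand, printed as CGTCA, and 67 bases before it on the plus strand. The other searched letters were not in the Rgs2 window, and none of them was in the Rgs10 or Rgs16 window. Of 32851 windows of 300 bases, 0.411% held TTCCTAGAA, 8.3% TTCNNNGAA, 57.3% GAAAG and 20.8% TGACG. A first Rgs3 window held GAAAG 119 and 108 bases before the start, and one of 3 Rgs19 windows held it 22 bases before the start. GC content was 76.0% in the Rgs10, 66.0% in the Rgs16 and 70.0% in the Rgs2 window. No window was listed for Rgs1, Rgs14 or Rgs18. A match is a run of letters and was not tested as a binding site.

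Total counts ranged from 18309162 to 22322079 per library. Values are counts relative to library size (CPM), scaled within an experiment by trimmed mean of M-values (TMM), unless FPKM, the deposited value per gene length and library size, is named. The gene in each label followed it: Bcl6 stood at 425.4 and 404.2 CPM in Bcl6+ TILs, at 14.79 and 18.16 CPM in TIM-3+ TILs and at 90.13 and 94.19 CPM in DN TILs, and Havcr2, which encodes TIM-3, at 1304 and 1360 CPM in TIM-3+ TILs and at 33.02 to 200.5 CPM in the other TIL libraries. Prdm1 was 155.2 and 192.3 CPM in Prdm1-overexpressing cells and 109.1 and 89.57 CPM in their controls, and Bcl6 was 93.61 and 67.18 CPM in Bcl6-overexpressing cells and 4.077 and 3.8 CPM in theirs. The other label gene differed too. Bcl6 was 19.61 and 20.38 CPM in Prdm1-overexpressing cells, against 7.69 and 8.852 CPM in controls. Prdm1 was 32.63 and 41.34 CPM in Bcl6-overexpressing cells, against 99.07 and 90.12 CPM in controls. Summed CPM of 5 CD8 and CD3 markers of CD8 T cells, none of them at 0, was 4470 to 4530 in Bcl6+, 7540 to 7680 in TIM-3+ and 5210 in DN TILs. It was 1510 to 2690 in Prdm1-overexpressing cells, against 1830 to 2460 in their controls, and 3880 to 4290 in Bcl6-overexpressing cells, against 2010 to 2470 in their controls. In the Bcl6 experiment 12.5% and 13.5% of listed genes were at 0 counts in overexpressing libraries, against 0.624% and 0.453% in their controls. The share ranged from 2.64% to 11% in the libraries of the other experiments, which list other numbers of genes. With 2 libraries per group, other differences between the libraries, such as their preparation, cannot be told apart from overexpression. Phrases such as with Bcl6 overexpression name the comparison only. In these whole-group libraries, fewer cells of a type and less RNA per cell cannot be told apart.

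edgeR's quasi-likelihood test was run on genes whose FPKM averaged 1 or more in an experiment, and a gene was called at a Benjamini-Hochberg adjusted p under 0.05. The TIL comparisons share libraries, so they are not independent of each other. Between Bcl6+ and TIM-3+ TILs, all 7 RGS genes tested were called, 2 higher and 5 lower, where 38.6% of the 9748 genes tested were called (19.1% higher and 19.6% lower). Between Bcl6+ and DN TILs, 5 of 7 were called, 2 higher and 3 lower, where 14.2% of genes were called (6.49% higher and 7.69% lower). This count fell to 3 without Bcl6+ replicate 1 and to 2 without DN replicate 2. Between TIM-3+ and DN TILs, 4 of 7 were called, 3 higher and 1 lower, where 28.2% of genes were called (14.9% higher and 13.2% lower). With Prdm1 overexpression 0 of 8 were called by edgeR, and 0 by DESeq2 and limma, where edgeR called 1.36% of the 9947 genes tested (1.16% higher and 0.201% lower). At that share 0 of 8 is near the background and says little about the RGS genes. That background was unstable: the 135 genes called became 3 to 784 when 1 library was left out and 1659 with a replicate block, and 0 RGS genes were called in each of these fits. 0 of the 8 had an unadjusted edgeR p under 0.05. With Bcl6 overexpression 2 of 7 were called, 1 higher and 1 lower, where 48.8% of the 9669 genes tested were called (25.4% higher and 23.4% lower). Groups that did not overlap in CPM were common: this held for 68.9% of genes tested between Bcl6+ and TIM-3+ TILs, 54.4% between Bcl6+ and DN TILs, 64.9% between TIM-3+ and DN TILs, 51.1% with Prdm1 and 75.7% with Bcl6 overexpression. Rgs18 lay under the filter in the TIL and Bcl6 fits.

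**Figure D1:**
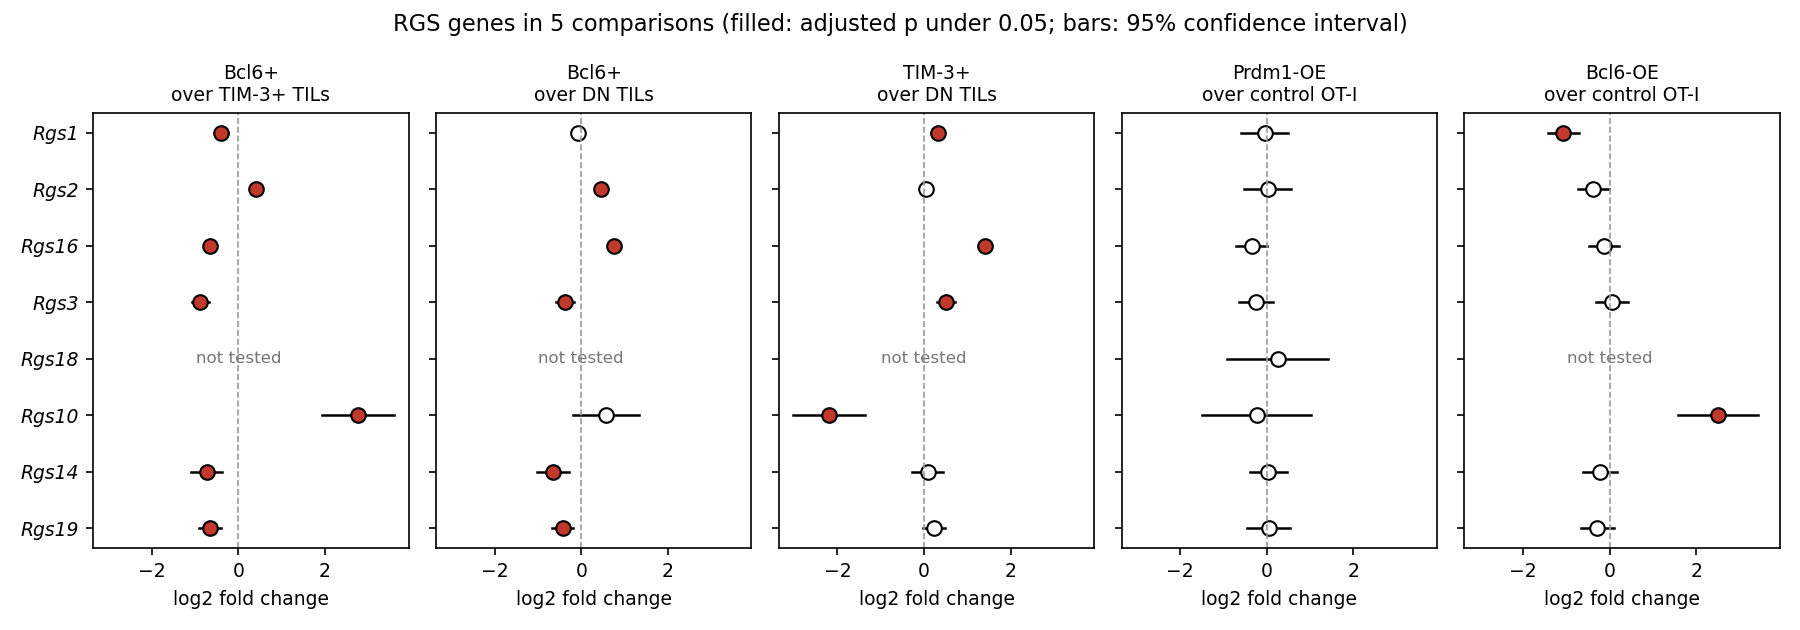
Log2 fold change (x axis) of each RGS gene (rows) in the 5 comparisons (panels), from edgeR, with 95% confidence intervals as bars; filled points have an adjusted p under 0.05 and OE stands for overexpressing. Rgs10 has the widest range, from -2.19 between TIM-3+ and DN TILs to 2.76 between Bcl6+ and TIM-3+ TILs, and no point is filled for Prdm1 overexpression. Both ends of that range rest on the same TIM-3+ libraries, which come first in one comparison and second in the other.

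The median log2 fold change of the RGS genes tested was -0.65 between Bcl6+ and TIM-3+ TILs, -0.08 between Bcl6+ and DN TILs, 0.23 between TIM-3+ and DN TILs, -0.01 with Prdm1 and -0.22 with Bcl6 overexpression. The 5 CD8 and CD3 markers were all called lower between Bcl6+ and TIM-3+ TILs with a median of -0.65, close to that of the RGS genes, 5 of which were called lower there. Between Bcl6+ and DN TILs 3 of these markers were called lower, and between TIM-3+ and DN TILs 4 were called higher. Their part in the RGS differences was not tested. Over all genes tested the medians were 0.01 between Bcl6+ and TIM-3+ TILs, 0.003 between Bcl6+ and DN TILs, -0.01 between TIM-3+ and DN TILs, 0.02 with Prdm1 and 0.002 with Bcl6 overexpression. Scaling by total counts moved the median of all genes by 0.19 between Bcl6+ and TIM-3+ TILs and by -0.17 between TIM-3+ and DN TILs. Calls higher and lower then numbered 2948 and 1268 between Bcl6+ and TIM-3+ TILs, against 1857 and 1907 with TMM. Between TIM-3+ and DN TILs they numbered 861 and 2217, against 1454 and 1291 with TMM. With Prdm1 overexpression they numbered 174 and 120 by total counts and 191 and 84 by relative log expression (RLE) size factors, against 115 and 20 with TMM. Every RGS call between Bcl6+ and TIM-3+ TILs kept its direction and its adjusted p under 0.05 by total counts, and between TIM-3+ and DN TILs the Rgs1 call did not.

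Compared per length in FPKM, Rgs16, Rgs2 and Rgs1 made up most of the summed level of the 8 genes in every group. Their share was 91.4% in Bcl6+, 90.2% in TIM-3+ and 84.8% in DN TILs, 88.1% in Prdm1-overexpressing cells against 89% in their controls, and 86.8% in Bcl6-overexpressing cells against 88.8% in theirs. The order of mean FPKM in all 3 TIL groups was Rgs16, Rgs2, Rgs1, Rgs19, Rgs3, Rgs14, Rgs10 and Rgs18. Neighbours in this order stood apart by more than either of their SDs in each TIL group. In all 4 OT-I groups Rgs14 stood above Rgs3 in FPKM, and the order of Rgs2 and Rgs16 varied. Rgs2 averaged 249.1 ± 70.2 and Rgs16 185.8 ± 19.7 FPKM in Prdm1-overexpressing cells, and 265.1 ± 29.1 and 253.1 ± 11.7 FPKM in their controls (SD, n = 2). In both of these groups the gap was under the SD of Rgs2. Rgs2 averaged 197.7 ± 25.2 and Rgs16 279.4 ± 22.3 FPKM in Bcl6-overexpressing cells, and 241.7 ± 22.1 and 286.9 ± 23 FPKM in their controls (SD, n = 2). The lengths behind the deposited FPKM matched the merged exons of GENCODE M21. For Rgs1 these came to 6947 bases, the whole gene from start to end with its introns, while its longest protein-coding transcript has 3841 bases. Per kilobase of the longest protein-coding transcript, Rgs1 stood at 318.4, Rgs2 at 309.4 and Rgs16 at 306.1 CPM per kilobase in Bcl6 controls, so the place of Rgs1 in the order depends on the length taken. With that length, chosen after seeing the data, the 3 genes together held 79.4% to 87.4% of the summed level over the 7 groups.

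**Figure D2:**
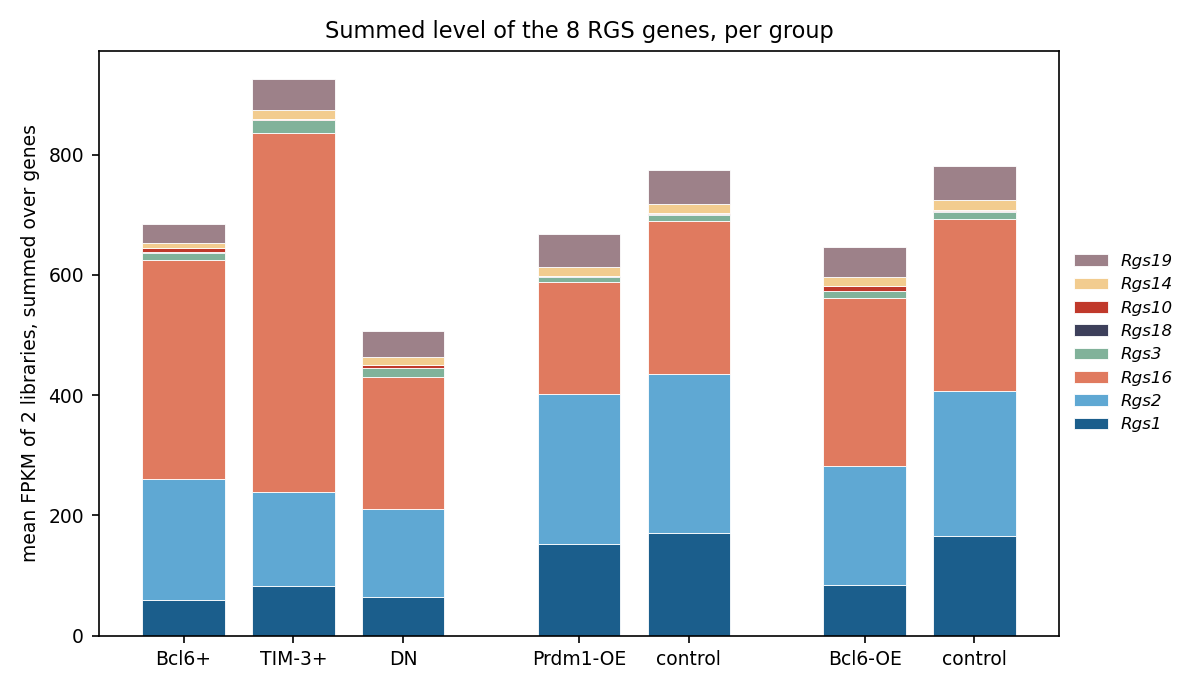
Mean FPKM of 2 libraries (y axis), summed over the 8 RGS genes (colours), in each group (x axis; OE stands for overexpressing). Among TILs the sum is highest in TIM-3+ cells at 926.6, where Rgs16 holds 64.4% of it, and lowest in DN cells at 507.1, where Rgs16 holds 43.2%. The experiments differ in cells, day and processing, so bars are to be compared only within an experiment.

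Rgs16 was the RGS gene with the highest FPKM in TILs. It acts on Gi and Gq alpha subunits and is known to limit lymphocyte migration to chemokines. It was counted at 861.7 and 950.6 CPM in Bcl6+ TILs, 1365 and 1487 CPM in TIM-3+ TILs and 524.6 and 554.6 CPM in DN TILs. The 3 groups did not overlap: TIM-3+ libraries were highest, Bcl6+ libraries lay between and DN libraries were lowest. In TIM-3+ TILs its mean of 596.8 FPKM ranked 58 among 15319 listed genes. Rgs16 was lower in Bcl6+ than in TIM-3+ TILs (log2 fold change -0.65, SE 0.06, edgeR adjusted p = 1.9e-06). It was higher in Bcl6+ than in DN TILs (0.75, SE 0.06, edgeR adjusted p = 2.3e-06). It was also higher in TIM-3+ than in DN TILs (1.40, SE 0.06, edgeR adjusted p = 2.7e-09), 2.63-fold.

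In the OT-I experiments Rgs16 was not called. It stood at 444 and 483.9 CPM in Prdm1-overexpressing cells, against 615.2 and 569.9 CPM in their controls. Both Prdm1-overexpressing libraries lay below both controls, and the log2 fold change was -0.35 (95% confidence interval -0.70 to 0.01, edgeR adjusted p = 0.27). Its unadjusted p of 0.053 was the smallest among the RGS genes there. With Bcl6 overexpression it stood at 695.2 and 621.6 CPM, against 672.4 and 759.4 CPM in controls, and the groups overlapped (log2 fold change -0.13, 95% confidence interval -0.48 to 0.22). Rgs16 shares 236 exonic bases with the antisense gene Gm28513, and without a stated use of strand reads there cannot be told apart.

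Rgs1 acts on Gi and Gq alpha subunits and is known in lymphocytes as a brake on chemokine-driven movement. In the Bcl6 experiment it stood at 545.8 and 627.2 CPM in Bcl6-overexpressing cells, against 1290 and 1156 CPM in their controls. The groups did not overlap, and Rgs1 was 2.09-fold lower in Bcl6-overexpressing cells (log2 fold change -1.07, SE 0.17, edgeR adjusted p = 3.5e-05). Markers of macrophages and neutrophils, given with Rgs10, also differed between these groups, and their part in the result was not tested. Among TILs it stood at 463.9 and 421 CPM in Bcl6+, 570.7 and 594 CPM in TIM-3+ and 461.8 and 471.9 CPM in DN libraries. TIM-3+ libraries were above all others, and Bcl6+ and DN libraries overlapped. Rgs1 was lower in Bcl6+ than in TIM-3+ TILs (log2 fold change -0.39, SE 0.07, edgeR adjusted p = 0.00033). It was higher in TIM-3+ than in DN TILs (0.32, SE 0.07, edgeR adjusted p = 0.0026), but not by total counts (0.15, adjusted p = 0.11). Between Bcl6+ and DN TILs the log2 fold change was -0.08 (95% confidence interval -0.22 to 0.07). In the Prdm1 experiment Rgs1 stood at 1415 and 880.2 CPM in overexpressing cells and at 1260 and 1117 CPM in controls, which lay between the overexpressing libraries.

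Rgs2, which prefers Gq alpha subunits, was counted at 778.2 and 760.6 CPM in Bcl6+ TILs, 588.9 and 570.2 CPM in TIM-3+ TILs and 539.5 and 581 CPM in DN TILs. Bcl6+ libraries were above all others, and TIM-3+ and DN libraries overlapped. Rgs2 was higher in Bcl6+ than in TIM-3+ TILs (log2 fold change 0.41, SE 0.06, edgeR adjusted p = 8e-05) and than in DN TILs (0.46, SE 0.06, edgeR adjusted p = 0.00011). In the Bcl6 experiment it stood at 656.8 and 788 CPM in overexpressing cells, against 991.4 and 878 CPM in controls. There its log2 fold change was -0.38 (SE 0.17, edgeR adjusted p = 0.075), with an adjusted p of 0.037 by total counts and of 0.0014 without overexpressing replicate 2. With Prdm1 overexpression Rgs2 stood at 1197 and 749.3 CPM, against 1043 and 882.7 CPM in controls, so that the groups overlapped, as for Rgs1.

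Ratios within a library do not depend on the scaling between libraries. The FPKM of Rgs1 over that of Rgs2 was 0.434 and 0.416 in Bcl6-overexpressing cells, against 0.679 and 0.688 in their controls. Among TILs this ratio was 0.311 and 0.289 in Bcl6+, 0.506 and 0.544 in TIM-3+ and 0.447 and 0.424 in DN libraries. Bcl6-overexpressing cells and Bcl6+ TILs had the lowest ratios of their experiments. The fold changes behind them, unlike the ratios, depend on the scaling. In Bcl6+ TILs Rgs2 was higher than in TIM-3+ (log2 fold change 0.41) and DN TILs (0.46), and Rgs1 differed by -0.39 and, not called, by -0.08. With Bcl6 overexpression both values were negative, at -1.07 for Rgs1 and -0.38 for Rgs2, which was not called. The ratio was 0.617 and 0.613 in Prdm1-overexpressing cells and 0.631 and 0.661 in their controls. The FPKM of Rgs16 over that of Rgs2 was 1.72 and 1.94 in Bcl6+, 3.59 and 4.04 in TIM-3+ and 1.51 and 1.48 in DN TILs.

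**Figure D3:**
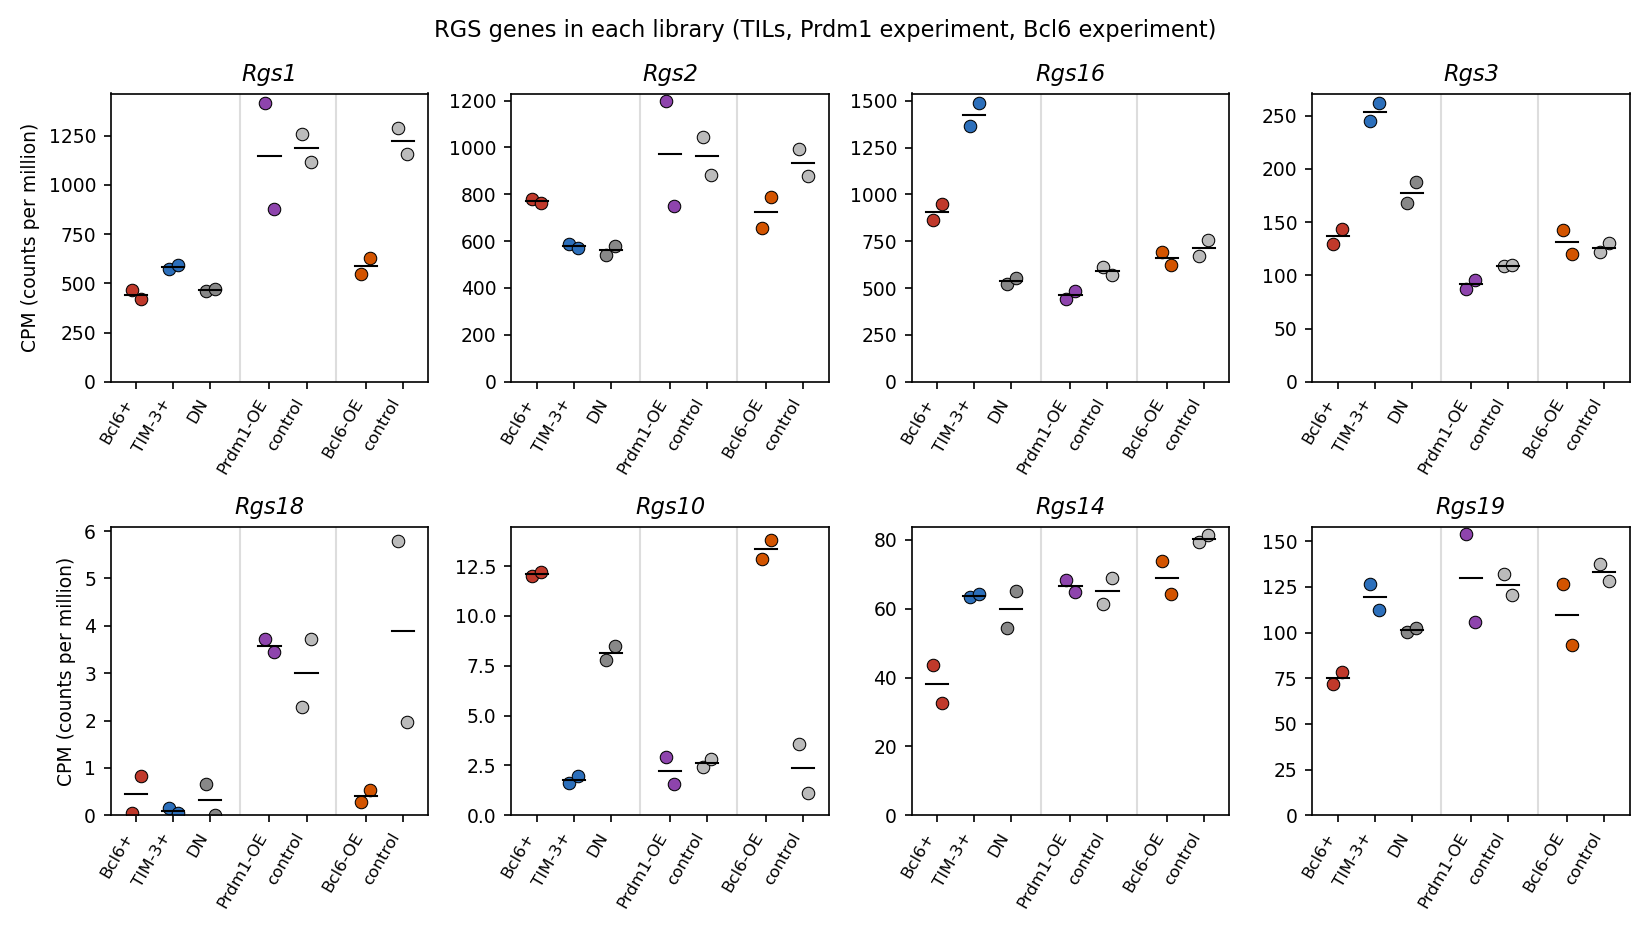
CPM (y axis, each panel from 0 on its own scale) of each RGS gene in each library (points), with the mean of 2 libraries as a line; grey verticals separate the TIL, Prdm1 and Bcl6 experiments and OE stands for overexpressing. Rgs16 is highest in TIM-3+ TILs at 1365 and 1487 CPM, and Rgs10 is highest in Bcl6+ TILs within its experiment and in Bcl6-overexpressing cells within theirs.

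Rgs3 acts on Gi and Gq alpha subunits and is known to limit chemotaxis. It was counted at 129.9 and 143.8 CPM in Bcl6+ TILs, 244.7 and 262.1 CPM in TIM-3+ TILs and 168 and 187.6 CPM in DN TILs. The 3 groups did not overlap, with Bcl6+ libraries lowest and TIM-3+ libraries highest. It was lower in Bcl6+ than in TIM-3+ TILs (log2 fold change -0.88, SE 0.09, edgeR adjusted p = 4.4e-06) and higher in TIM-3+ than in DN TILs (0.51, SE 0.09, edgeR adjusted p = 0.00095). It was also lower in Bcl6+ than in DN TILs (-0.38, SE 0.09, edgeR adjusted p = 0.014). That call was lost without Bcl6+ replicate 1 (adjusted p = 0.085), without DN replicate 2 (adjusted p = 0.18) and with limma on log2(FPKM + 1) or log2(FPKM + 0.1) (adjusted p = 0.063 and 0.066). With Prdm1 overexpression it stood at 87.19 and 95.76 CPM, against 108.4 and 109.6 CPM in controls, a log2 fold change of -0.25 (95% confidence interval -0.64 to 0.14). With Bcl6 overexpression it stood at 142.4 and 119.7 CPM, against 121.8 and 130.1 CPM in controls, and the groups overlapped.

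Rgs18, best known from platelets and megakaryocytes, had the lowest mean FPKM of the 8 genes in the 3 TIL groups and in Bcl6-overexpressing cells. It was also lowest in Prdm1 controls, at 1.48 ± 0.516 FPKM, close to Rgs10 at 1.541 ± 0.175 FPKM (SD, n = 2). In Prdm1-overexpressing cells it averaged 1.645 FPKM and Rgs10 1.214 FPKM, and in Bcl6 controls it averaged 1.797 FPKM and Rgs10 1.294 FPKM. The raw counts of Rgs18 were 1 and 18 in Bcl6+, 3 and 1 in TIM-3+ and 14 and 0 in DN TIL libraries. They were 64 and 63 in Prdm1-overexpressing cells against 43 and 75 in their controls. They were 6 and 12 in Bcl6-overexpressing cells against 118 and 42 in theirs, and these groups did not overlap, as for 75.7% of genes tested there. With no filter on low values, its log2 fold change with Bcl6 overexpression was -3.11 (edgeR adjusted p = 0.0027). Rgs18 lay under the filter of the main fit, which called 4720 genes there. Settings other than leaving out 1 library called 4459 to 7003 genes. Summed CPM of the platelet and megakaryocyte markers in the table, 3 of 5, ranged from 4.56 to 8.84 in Bcl6-overexpressing cells and from 2.06 to 3.33 in their controls. The 3 did not move alike: Pf4 stood at 5.78 and 3.07 CPM in Bcl6-overexpressing cells, against 0.0491 and 0 CPM in controls, while Gp9 stood at 0.423 and 0.181 CPM, against 1.28 and 0.469 CPM in controls. Itga2b stood at 2.63 and 1.31 CPM in Bcl6-overexpressing cells, against 0.737 and 2.86 CPM in controls, and overlapped. The part of such cells in the Rgs18 result was not tested.

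Of the RGS genes tested, Rgs10 had the largest fold change between Bcl6+ and TIM-3+ TILs, between TIM-3+ and DN TILs and with Bcl6 overexpression. It acts on Gi alpha subunits, is expressed across leukocytes and is known in macrophages and microglia for limiting inflammatory signals. It was counted at 12 and 12.19 CPM in Bcl6+ TILs (raw counts 254 and 264), at 1.616 and 1.953 CPM in TIM-3+ TILs (33 and 40) and at 7.766 and 8.516 CPM in DN TILs (165 and 184). The 3 groups did not overlap, with Bcl6+ libraries highest and TIM-3+ libraries lowest. Rgs10 was 6.79-fold higher in Bcl6+ than in TIM-3+ TILs (log2 fold change 2.76, SE 0.39, edgeR adjusted p = 6.4e-05). It was lower in TIM-3+ than in DN TILs (-2.19, SE 0.38, edgeR adjusted p = 0.00067). Between Bcl6+ and DN TILs the log2 fold change was 0.57 (95% confidence interval -0.18 to 1.33, edgeR adjusted p = 0.34).

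With Bcl6 overexpression Rgs10 stood at 12.88 and 13.83 CPM (raw counts 274 and 306), against 3.586 and 1.126 CPM in controls (73 and 24). The groups did not overlap, and the controls differed from each other by more than the overexpressing libraries did. Rgs10 was 5.66-fold higher with Bcl6 overexpression (log2 fold change 2.50, SE 0.44, edgeR adjusted p = 9.7e-05). The log2 fold change was 3.56 without control replicate 1 and 1.89 without control replicate 2, each with an adjusted p under 0.05. With Prdm1 overexpression Rgs10 stood at 2.901 and 1.584 CPM, against 2.44 and 2.835 CPM in controls, and the groups overlapped (log2 fold change -0.23, 95% confidence interval -1.5 to 1.03).

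Markers of macrophages and monocytes moved with Rgs10 in the TIL and Bcl6 experiments. The summed CPM of 4 of them, Csf1r, Lyz2, Adgre1 and Cd68, ranged from 198 to 231 in Bcl6+, from 34.9 to 51 in TIM-3+ and from 126 to 129 in DN TILs. It ranged from 464 to 535 in Bcl6-overexpressing cells, against 122 to 123 in their controls, and none of the 4 was at 0 in any group. In the Bcl6 experiment all 4 were tested and called higher, as were 3 of 3 tested between Bcl6+ and TIM-3+ TILs. Between Bcl6+ and DN TILs 2 of 3 were called higher, where Rgs10 was not called. Among the Prdm1 libraries the sum ranged from 133 to 242 in overexpressing cells and from 367 to 413 in controls, while Rgs10 stayed between 1.584 and 2.901 CPM. Neutrophil markers summed to between 28.6 and 29.6 CPM in Bcl6-overexpressing cells and to between 1.5 and 3.34 CPM in their controls, where S100a8 was at 0. Of that list, Csf3r overlapped, at 3.48 and 1.81 CPM against 2.8 and 1.03 CPM in controls, and so did Cxcr2. Erythroid markers summed to between 13.7 and 16 CPM in Bcl6-overexpressing cells and to between 0.982 and 1.17 CPM in their controls, where Hba-a1, Hbb-bs and Hbb-bt were at 0. Alas2 of that list overlapped, at 0.846 and 1.54 CPM against 0.982 and 1.17 CPM in controls. Other lists were lower in Bcl6-overexpressing cells. Stromal and endothelial markers summed to 63.5 to 67.7 CPM, against 103 to 109 CPM in controls, and dendritic cell markers to 14.1 to 17.1 CPM, against 26.1 to 31.3 CPM. Among TILs, erythroid markers summed to 36.9 to 39.4 CPM in Bcl6+, 17.7 to 24.2 CPM in TIM-3+ and 63.2 to 64.7 CPM in DN libraries. Dendritic cell markers summed to 44.5 to 52.1 CPM in Bcl6+, 54.6 to 57.6 CPM in TIM-3+ and 62.2 to 71.7 CPM in DN TILs. Neither list ranked the TIL groups as Rgs10 did. Markers of CD4 and regulatory T cells summed to 431 and 432 CPM in Bcl6+, to between 149 and 162 CPM in TIM-3+ and to 245 CPM in DN TILs, and nearly all of it was Ikzf2, at 420 and 420 CPM in Bcl6+, 141 and 134 CPM in TIM-3+ and 219 and 220 CPM in DN TILs. Other markers of that list did not follow Rgs10. Foxp3 was 0.378 and 0 CPM in Bcl6+, 6.27 and 4.69 CPM in TIM-3+ and 0.282 and 0.417 CPM in DN TILs, and Cd4 and Cd40lg were called lower in Bcl6+ than in DN TILs. The part of any of these cells in the Rgs10 differences was not tested.

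**Figure D4:**
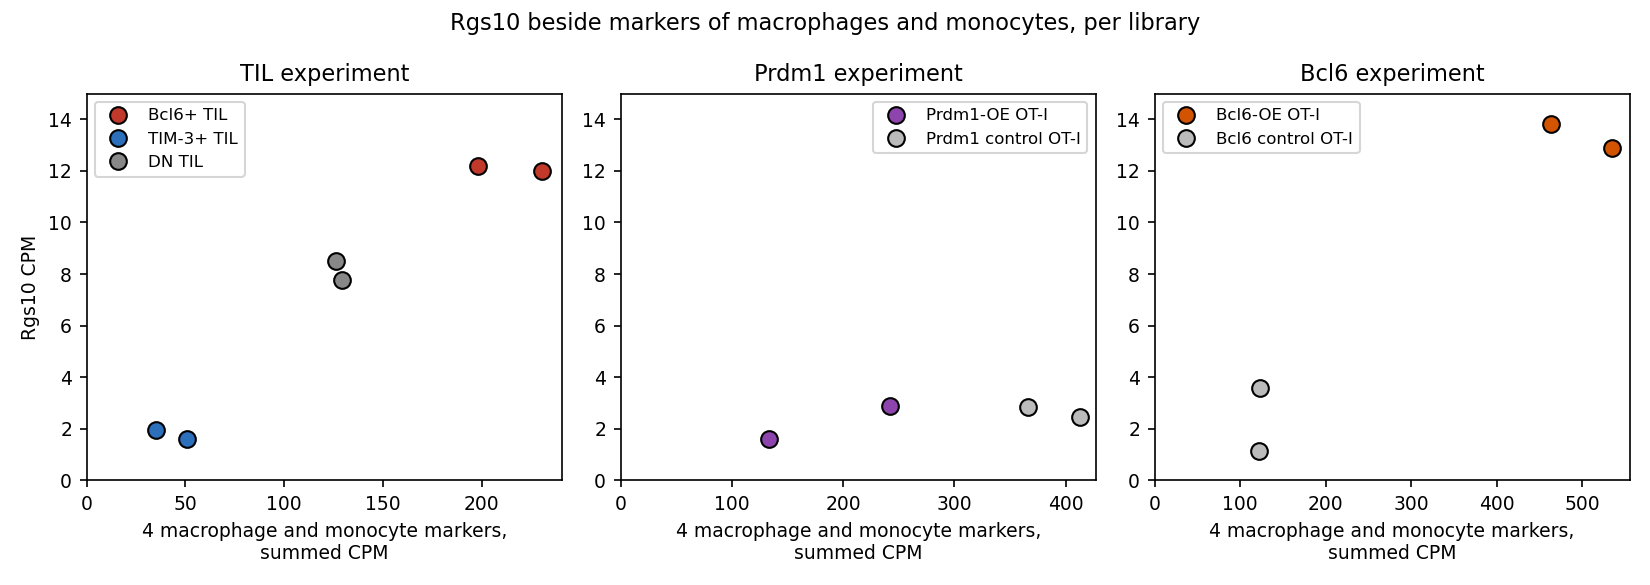
Rgs10 CPM (y axis) beside the summed CPM of 4 macrophage and monocyte markers (x axis) in each library (points), with 1 panel per experiment and OE for overexpressing. Both are highest in Bcl6+ TILs and in Bcl6-overexpressing cells within their experiments, and in the Prdm1 experiment the controls have marker sums of 367 to 413 at Rgs10 levels of 2.44 and 2.835 CPM.

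Rgs14, which joins an RGS domain to Ras-binding domains and a GoLoco motif for Gi alpha, stood at 43.61 and 32.74 CPM in Bcl6+ TILs, 63.36 and 64.25 CPM in TIM-3+ TILs and 54.31 and 65.26 CPM in DN TILs. Bcl6+ libraries were below all others, and TIM-3+ and DN libraries overlapped. It was lower in Bcl6+ than in TIM-3+ TILs (log2 fold change -0.74, SE 0.17, edgeR adjusted p = 0.0033) and than in DN TILs (-0.65, SE 0.17, edgeR adjusted p = 0.019). The second call was lost without Bcl6+ replicate 2 (adjusted p = 0.13) and without DN replicate 2 (adjusted p = 0.22). Rgs14 stood at 68.22 and 64.84 CPM with Prdm1 overexpression, against 61.47 and 68.88 CPM in controls, with overlapping groups. It stood at 73.72 and 64.16 CPM with Bcl6 overexpression, against 79.23 and 81.3 CPM in controls (log2 fold change -0.22, 95% confidence interval -0.61 to 0.16).

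Rgs19, which acts on Gi class alpha subunits, stood at 72.1 and 78.37 CPM in Bcl6+ TILs, 126.7 and 112.1 CPM in TIM-3+ TILs and 100.5 and 102.7 CPM in DN TILs. The 3 groups did not overlap, with Bcl6+ libraries lowest and TIM-3+ libraries highest. It was lower in Bcl6+ than in TIM-3+ TILs (log2 fold change -0.66, SE 0.12, edgeR adjusted p = 0.00042). It was also lower in Bcl6+ than in DN TILs (-0.43, SE 0.12, edgeR adjusted p = 0.021), a call lost without Bcl6+ replicate 1 (adjusted p = 0.097), without DN replicate 1 (adjusted p = 0.12) and without DN replicate 2 (adjusted p = 0.14). Between TIM-3+ and DN TILs the log2 fold change was 0.23 (95% confidence interval -0.02 to 0.47). Rgs19 stood at 153.7 and 105.7 CPM with Prdm1 overexpression, against 131.8 and 120.8 CPM in controls. It stood at 126.6 and 93.07 CPM with Bcl6 overexpression, against 137.5 and 128.3 CPM in controls (log2 fold change -0.28, 95% confidence interval -0.67 to 0.11), with an adjusted p of 0.0085 without overexpressing replicate 1.

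Several of these genes are neighbours on chromosome 1 (GENCODE M21 on GRCm38, which is mm10). Rgs2 (chr1:143999338-144004161), Rgs13 (chr1:144138654-144177372), Rgs1 (chr1:144242296-144249242), Rgs21 (chr1:144516648-144567667) and Rgs18 (chr1:144752683-144775435) lie on the minus strand within 776098 bases. They did not move as a block: between Bcl6+ and TIM-3+ TILs Rgs2 and Rgs13 were higher while Rgs1 was lower. Rgs13, an R4 member known from germinal center B cells, stood at 11.9 and 8.82 CPM in Bcl6+, 2.59 and 0.537 CPM in TIM-3+ and 12.2 and 10.1 CPM in DN TILs. Its log2 fold change was 2.73 between Bcl6+ and TIM-3+ TILs (SE 0.55, edgeR adjusted p = 0.0014), and B cell markers summed to between 2.4 and 4.25 CPM in Bcl6+, between 0.49 and 0.781 CPM in TIM-3+ and between 3.01 and 3.72 CPM in DN TILs. The part of B cells in it was not tested.

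Rgs16 (chr1:153740349-153745468) and the R4 member Rgs8 (chr1:153653025-153700323) lie 40025 bases apart on the plus strand. Rgs8 stood at 47.9 and 36.5 CPM in Bcl6+, 115 and 110 CPM in TIM-3+ and 34.4 and 36.2 CPM in DN TILs. Both genes were lower in Bcl6+ than in TIM-3+ TILs and higher in TIM-3+ than in DN TILs, where Rgs8 had log2 fold changes of -1.41 (edgeR adjusted p = 5.8e-06) and 1.66 (edgeR adjusted p = 2.4e-06). Rgs8 was not called between Bcl6+ and DN TILs (0.26, edgeR adjusted p = 0.33), where Rgs16 was. Rgs8 shares 70 exonic bases with the antisense gene Gm29529, and reads there cannot be told apart either. Rgs19 (chr2:181688419-181693977, minus strand), Rgs3 (chr4:62559847-62704001, plus strand), Rgs10 (chr7:128373621-128418758, minus strand) and Rgs14 (chr13:55369732-55384687, plus strand) lie elsewhere. Of 15 other RGS family genes, 4 were tested among TILs, and besides Rgs8 and Rgs13 none was called.

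The lists of pathway genes were read with TMM scaling, and where another scaling changes a call of a gene named here its value is given. Their counts are to be read against the share of all genes called. It was 38.6% between Bcl6+ and TIM-3+ TILs, 28.2% between TIM-3+ and DN TILs, 48.8% with Bcl6 and 1.36% with Prdm1 overexpression. The Prdm1 share was unstable, and in lists this short 1 gene moves a share widely. The G protein subunits on which RGS proteins act come first. Of 2 Gi and Go alpha subunits tested, Gnai2 was lower in Bcl6+ than in TIM-3+ TILs (log2 fold change -0.92, edgeR adjusted p = 5.5e-05), and Gnai3 was not called (-0.03). With Bcl6 overexpression Gnai2 was higher (1.5, edgeR adjusted p = 7.4e-07) and Gnai3 lower (-1.35, edgeR adjusted p = 1.7e-06). Of 3 Gq subunits tested, 1 was lower between Bcl6+ and TIM-3+ TILs, Gna15 (-2.18, edgeR adjusted p = 1.4e-06), and 1 was lower with Bcl6 overexpression, Gnaq (-0.95, edgeR adjusted p = 0.0016). Of 3 Gs and G12 subunits tested among TILs, Gna13 was higher in Bcl6+ than in TIM-3+ TILs (0.40, edgeR adjusted p = 0.022) and lower in TIM-3+ than in DN TILs (-0.69, edgeR adjusted p = 0.00098). Of 10 beta and gamma subunits tested, 2 were higher and 3 lower between Bcl6+ and TIM-3+ TILs, among them Gng2 (-1.39) and Gnb1 (-0.56), with a list median of -0.30. With Bcl6 overexpression 6 of the 10 were higher and 3 lower, led by Gng5 (2.69) and Gnb2 (1.92), with a list median of 1.02 against 0.002 over all genes. Myeloid and erythroid markers differed between the same libraries, and so did the share of listed genes at 0 counts. The part of these differences in the result was not tested.

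Among other regulators of the pathway, the receptor kinase Grk2 (1.31) and the Gi alpha binding protein Gpsm3 (1.52) were higher with Bcl6 overexpression. There 2 of 5 receptor kinases and arrestins tested were higher and 0 lower. Of 8 other G alpha regulators, 2 were higher and 1 lower (2 and 2 by total counts). With TMM these shares were under the 48.8% of all genes called. Between Bcl6+ and TIM-3+ TILs the receptor kinase Grk6 (-0.70) and the arrestin Arrb2 (-0.61) were lower and Arrb1 (0.80) higher, out of 5 tested. Among adenylyl cyclases and protein kinase A subunits, 3 of 6 tested were lower between Bcl6+ and TIM-3+ TILs, namely Adcy7 (-0.62), Prkacb (-0.61) and Prkar2a (-0.62), and 0 were higher. By total counts 2 were lower and 1 higher there, since Prkar2a was no longer called (-0.43, edgeR adjusted p = 0.093) and Prkar1a was higher (0.14, edgeR adjusted p = 0.043). With Bcl6 overexpression Prkaca (1.60) was higher and Prkacb (-0.94) and Prkar1a (-0.55) lower. Of 4 tested genes of phospholipase C beta and PI3K gamma, 1 was higher and 2 lower between Bcl6+ and TIM-3+ TILs, among them Pik3cg (-1.26), the catalytic subunit of PI3K gamma, which was also lower with Bcl6 overexpression (-1.15).

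Receptors upstream of the RGS proteins differed in both directions. Of 13 chemokine receptors tested, 6 were higher and 6 lower (7 and 6 by total counts) between Bcl6+ and TIM-3+ TILs, including Ccr7 (log2 fold change 4.01) and Cxcr5 (7.09), which guide cells into lymphoid tissue, and Cxcr6 (-2.45), a receptor of tissue T cells. With Bcl6 overexpression 3 of 13 were higher and 4 lower, including Cxcr5 (4.10), Cxcr6 (-2.17) and Ccr2 (-2.17). With Prdm1 overexpression 2 of 12 were higher, Cxcr6 (1.22) and Ccr8 (1.27), and 1 lower, Ccr7 (-0.97). By total counts and by RLE size factors 2 were higher and 2 lower there. Of 22 lipid and orphan receptors tested, 9 were higher and 5 lower (10 and 4 by total counts) between Bcl6+ and TIM-3+ TILs. Among them were Gpr183 (2.68), a receptor for oxysterols, and Adgrg1 (-3.89). With Bcl6 overexpression 2 of 22 were higher and 8 lower (1 and 8 by total counts), led by Gpr171 (-1.71). Of 24 tested with Prdm1 overexpression 1 was called, Gpr34 (1.58).

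Over all 14 libraries, with each library set against the mean of its experiment, the genes most like each RGS gene were listed by Pearson's r of log2(CPM + 1) among 8942 other genes. The libraries share their groups, so r describes the group pattern more than it does single libraries. Rgs1 was most like Taf13 (r = 0.977), Vdac3 (0.973) and Hnrnpc (0.962). Rgs10 was most like Coq4 (0.953), Dapl1 (0.952) and Zhx2 (0.951). Rgs16 was most like Tedc1 (0.954), Prr5l (0.929) and Irf8 (0.923). Rgs3 was most like St14 (0.972), 1700017B05Rik (0.968) and Dnmt1 (0.968). Rgs2 had lower values, with Vamp4 (0.909), Dimt1 (0.877) and St13 (0.877). Rgs14 was most like Adgrg5 (0.932), Apobr (0.93) and Sytl3 (0.929), and Rgs19 most like H2-D1 (0.928), Lsp1 (0.924) and Pdlim2 (0.896). Among pairs of RGS genes, r ranged from -0.71 for Rgs1 and Rgs10 to 0.746 for Rgs14 and Rgs19.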

How the data were processed

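Per the file headers, the deposited tables hold 2 columns per library, a raw count and an FPKM value. Per the submitters' processing notes, tools included Bowtie2 and Subread for TIL libraries, HISAT2 and RSEM for OT-I libraries, and featureCounts and DESeq2 for both, on build mm10. Versions, roles and the use of strand are not stated there. Genes in the TIL and Bcl6 tables have summed counts of 20 or more. Counts were tested with edgeR 4.0.16 (quasi-likelihood, TMM, R 4.3.3) on genes averaging 1 FPKM or more, two-sided, with Benjamini-Hochberg adjustment at 0.05 over all genes tested. All 6 TIL libraries entered 1 fit, and the 4 libraries of each OT-I experiment another. SE was taken from the fold change and its F statistic. Alternatives were RLE size factors, total counts, DESeq2 1.42.0, no filter, limma 3.58.1 on log2(FPKM + 1) or log2(FPKM + 0.1), a replicate block, leaving out each library and, for TILs, a fit of the 4 libraries compared. Levels per length of the longest coding transcript, and pathway lists under other scalings, were added after seeing the data. The tests were tried on simulated data. The RGS genes, the lists and the tests were chosen with earlier results of these data known. Named besides the RGS genes were the label genes Bcl6, Prdm1 and Havcr2, up to 3 genes of each pathway list with the smallest p in a comparison, and the 3 genes most like each RGS gene. Cell type markers, neighbours of the RGS genes and the genes antisense to Rgs16 and Rgs8 were named beside the results they touch. This was outside that rule and after values were seen. Gene positions came from GENCODE M21 and promoters from RefSeq. Biological coefficients of variation were 0.149 (TIL), 0.227 (Prdm1) and 0.164 (Bcl6), and replicates correlated at 0.974 to 0.988. A marker of the macrophage and monocyte list is not reported here and was left out of its sums.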

Additional observations from a re-analysis of the deposited data

How the results depend on the processing

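All 7 RGS calls between Bcl6+ and TIM-3+ TILs, and the Rgs10 and Rgs1 calls with Bcl6 overexpression, kept direction and threshold under every alternative run, 14 and 11 settings. The number of RGS genes called between Bcl6+ and DN TILs ranged from 2 to 5 when 1 library was left out, and the number of all genes called from 736 to 1489, with 736 without DN replicate 1 and 773 without DN replicate 2. Between TIM-3+ and DN TILs the number of genes ranged from 1700 (without DN replicate 1) to 2943, with 1761 without DN replicate 2. In the Prdm1 experiment the 135 genes called became 275 with RLE size factors, 294 by total counts, 586 by DESeq2, 44 with no filter and 3 to 784 when 1 library was left out (784 without overexpressing replicate 1, 5 without control replicate 1, 3 without control replicate 2), while 0 RGS genes were called under each. At the 1.36% of genes called in the main fit, 0 of 8 is near the background and says little about the RGS genes. The causes of these changes in number were not tested.

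Log2 fold changes that changed sign were those of genes not called. Between TIM-3+ and DN TILs they were Rgs2 and Rgs14 by total counts (-0.12 and -0.078), and leaving out 1 library gave -0.0058 to 0.099 and -0.035 to 0.23. In the Prdm1 experiment Rgs2 was -0.031 with RLE size factors and DESeq2, -0.087 by total counts, -0.13 with no filter and -0.11 with limma at either pseudocount. Rgs14 was -0.0106 with RLE size factors and DESeq2, -0.064 by total counts, -0.12 with no filter and -0.061 and -0.064 with limma at pseudocounts of 1 and 0.1. Rgs19 was -0.0067 with RLE size factors and DESeq2, -0.062 by total counts, -0.11 with no filter and -0.07995 and -0.082 with limma at those pseudocounts. When 1 Prdm1 library was left out, Rgs1 ranged from -0.44 to 0.18, Rgs2 from -0.36 to 0.24, Rgs10 from -0.74 to 0.0604, Rgs14 from -0.045 to 0.12, Rgs18 from -0.055 to 0.65 and Rgs19 from -0.26 to 0.21. With Bcl6 overexpression Rgs3 was -0.0088 by total counts and ranged from -0.092 to 0.16 when 1 library was left out. Rgs19 between TIM-3+ and DN TILs had an adjusted p of 0.048 with limma on log2(FPKM + 1).

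The labels do not say that replicate numbers mark a shared animal, and deviations of same-numbered libraries correlated at 0.000686 to 0.032 among TILs, 0.323 for Prdm1 and -0.0645 for Bcl6 overexpression. With a replicate block 1659 genes were called in the Prdm1 experiment, 0 RGS genes among them, and Rgs2 was -0.014 there; no RGS call of any comparison changed.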
